A study of Homo sapiens with 6 samples.

Results

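The HOX cluster genes were described in RH30 cells, a human alveolar rhabdomyosarcoma line, whose classical NF-κB signaling had been blocked by the IκBα super repressor (IκBα SR). All 38 genes on a list of HOX genes from the clusters HOXA, HOXB, HOXC and HOXD were looked up by gene symbol, and 25 of them had a feature of their own among the 22411 genes of the array. Of the other 13, 7 were read only by features that carry the symbols of several genes (HOXA3, HOXA6, HOXA9, HOXB3, HOXB4, HOXD3 and HOXD4), and 6 were matched to no feature (HOXA4, HOXA5, HOXA7, HOXA10, HOXA11 and HOXA13). The description therefore covers 1 of 10 listed HOXA genes, 8 of 10 HOXB genes, 9 of 9 HOXC genes and 7 of 9 HOXD genes.

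HOX genes encode homeodomain transcription factors that give cells their position along the body axis. They lie in clusters in which gene order mirrors the order of expression from head to tail, so that the low-numbered genes (group 1 and its neighbors) act in the hindbrain and the high-numbered ones (up to group 13) in the trunk, limbs and tail. Most HOX proteins bind DNA together with TALE homeodomain partners of the PBX and MEIS families, Polycomb proteins keep silent clusters closed, and Trithorax proteins keep active ones open. Cell lines commonly retain the HOX pattern of the tissue that they came from.

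Gene expression was measured on 6 Human Transcriptome Array 2.0 arrays. RH30 vector cells (3 arrays) had been infected with the empty vector and RH30-IκBα SR cells (3 arrays) with the super repressor, a form of IκBα that holds NF-κB in the cytoplasm. It was expressed stably from pBabe-puro, and both lines grew in DMEM with 10% fetal bovine serum, with no cytokine or drug named. Triplicate cultures were described for each group but the number of separate infections was not given, so each p-value sets a difference against the variation of cultures of 1 line per group, part of which may be technical.

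Values are RMA signals on the log2 scale, so that a difference of 1 is a 2-fold change. Differences are IκBα SR minus vector, and a gene was called higher or lower where the Benjamini-Hochberg adjusted p of limma over all 22411 genes was under 0.05. By that rule 9.76% of all genes were higher and 8.58% were lower, and in 29.6% of genes the 3 values of one group did not overlap those of the other. The median gene had a level of 5.13, and genes below it are called dim here. Among the 11206 genes at or above that level, 18.7% were higher and 15.4% lower, and in 5823 the groups did not overlap. NFKBIA, the gene of IκBα, was 11.62 ± 0.041 (SD, n = 3) in vector cells and 13.62 ± 0.10 in IκBα SR cells, a difference of 2.00 (adjusted p = 1.4e-04 by limma). Whether its feature reads the introduced transcript, the endogenous one or both was not tested.

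The cells carried the muscle markers of rhabdomyosarcoma, with 9 of the 12 myoblast markers at or above the median gene. Their signals, summed off the log scale and given as log2, ranged from 15.96 to 15.98 on the vector arrays and from 16.59 to 16.76 on the IκBα SR arrays. The sum is led by the brightest markers, DES and CHRNA1, which had 14.71 and 14.50 on all 3 vector arrays. It does not describe the list as a whole, whose median difference was 0.01. Of these markers, DES, CHRNA1 and MYOD1 were higher and MYF5, MYOG and MYMK lower in IκBα SR cells. Of 6 genes associated with the PAX3-FOXO1 fusion of this tumor type, 2 reached the median gene, and FGFR4 was higher and PIPOX lower. MYOD1 kept its call in 11 and FGFR4 in 6 of 17 alternatives. None of the 4 blood, 4 endothelial and 4 neural markers measured reached the median gene. Of the 5 epithelial markers 1 did, KRT8, which was not called. The epithelial sum, led by KRT8, ranged from 7.47 to 7.61 in vector and from 7.17 to 7.43 in IκBα SR cells. The part of these shifts in the HOX results was not tested.

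In IκBα SR cells, HOXB9 rose 2.46-fold, HOXB2 1.53-fold and HOXA2 1.24-fold, and HOXB6 fell by 0.29 on the log2 scale. The remaining 21 measured HOX genes were not called. Thus 3 of 25 were higher and 1 of 25 lower, against the 9.76% and 8.58% of all genes given above, which is a share close to the background in both directions. The median difference of the 25 genes was -0.01, beside 0.00 over all genes, and their median absolute difference was 0.06, beside 0.07 over all genes. All 3 genes that rose belonged to the 10 HOX genes at or above the median gene, of which none was lower. Among all genes at or above that level, 18.7% were higher and 15.4% lower. The 1 gene that fell was among the 15 dim ones. The groups did not overlap in 4 of the 25 genes, beside 29.6% of all genes. Among the 10 HOX genes at or above the median gene they did not overlap in 3, beside 5823 of 11206 genes.

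**Figure D1:**
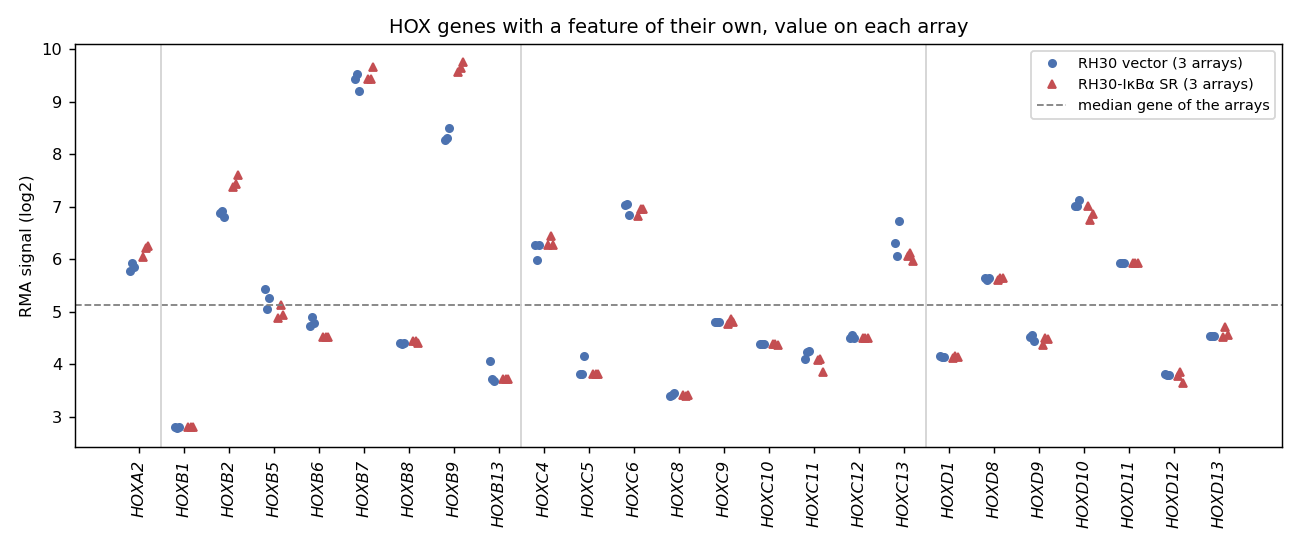
RMA signal (log2) of the 25 HOX genes on each array, in cluster order, with vector arrays as circles and IκBα SR arrays as triangles and the median gene of the arrays as a dashed line. HOXB9, HOXB2 and HOXA2 had all 3 IκBα SR arrays above all 3 vector arrays, HOXB6 had them below, and levels of different genes are not compared because each is read by its own probes.

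HOXB9 encodes a trunk HOX protein that in mice helps to pattern the ribs of the chest. Its values were 8.27, 8.30 and 8.49 on the vector arrays and 9.57, 9.64 and 9.75 on the IκBα SR arrays. The lowest IκBα SR array lay above the highest vector array by more than the whole range of either group. The means were 8.35 ± 0.12 and 9.65 ± 0.089 (SD, n = 3), which gives a difference of 1.30 with a standard error of 0.081 and a 95% interval of 1.09 to 1.51 (adjusted p = 9.1e-04 by limma). HOXB9 kept its call in 17 of 17 alternative analyses, with differences between 1.25 and 1.37. Not all of these were separate checks. Each measured HOX gene had 1 feature, so the alternatives that changed the summary per gene reused the same HOX values. The 1.5-fold alternative reused the main fit, and leaving out dim genes or genes with repeated values could not remove HOXB9.

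HOXB2 lies toward the other end of the same cluster and is known from mice for its role in the hindbrain, where it acts in the segment that gives rise to the facial nerve. It was measured at 6.88, 6.91 and 6.81 on the vector arrays and at 7.38, 7.44 and 7.61 on the IκBα SR arrays. The 2 groups did not overlap. From 6.87 ± 0.052 the mean rose to 7.48 ± 0.12 (SD, n = 3), a difference of 0.61 (standard error 0.070, 95% interval 0.43 to 0.80, adjusted p = 0.0055 by limma). Its call held in 16 of 17 alternatives.

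HOXA2, the only HOXA gene with a feature of its own, is the selector gene of the second pharyngeal arch in mice. Vector arrays gave 5.77, 5.93 and 5.86, and IκBα SR arrays gave 6.05, 6.21 and 6.25. The groups did not overlap, but they were separated by less than the range within either group. Its difference of 0.32 (standard error 0.072, 95% interval 0.12 to 0.51) had an adjusted p of 0.048 by limma, close to the threshold. The call was lost in 8 of 17 alternatives, among them those without any single vector array and those without IκBα SR replicate 2 or 3, where adjusted p reached 0.16.

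HOXB6 comes from the middle of its cluster and is known for expression in early blood precursors. It gave 4.72, 4.90 and 4.78 on the vector arrays and the same value, 4.51, on all 3 IκBα SR arrays. Every IκBα SR value was below every vector value. The difference was -0.29 (standard error 0.048, adjusted p = 0.017 by limma), yet both means were below the median gene and the IκBα SR group had an SD of 0. The call was lost in 6 of the 15 alternatives that tested the gene, including those without vector replicate 3 and without any single IκBα SR array.

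**Figure D2:**
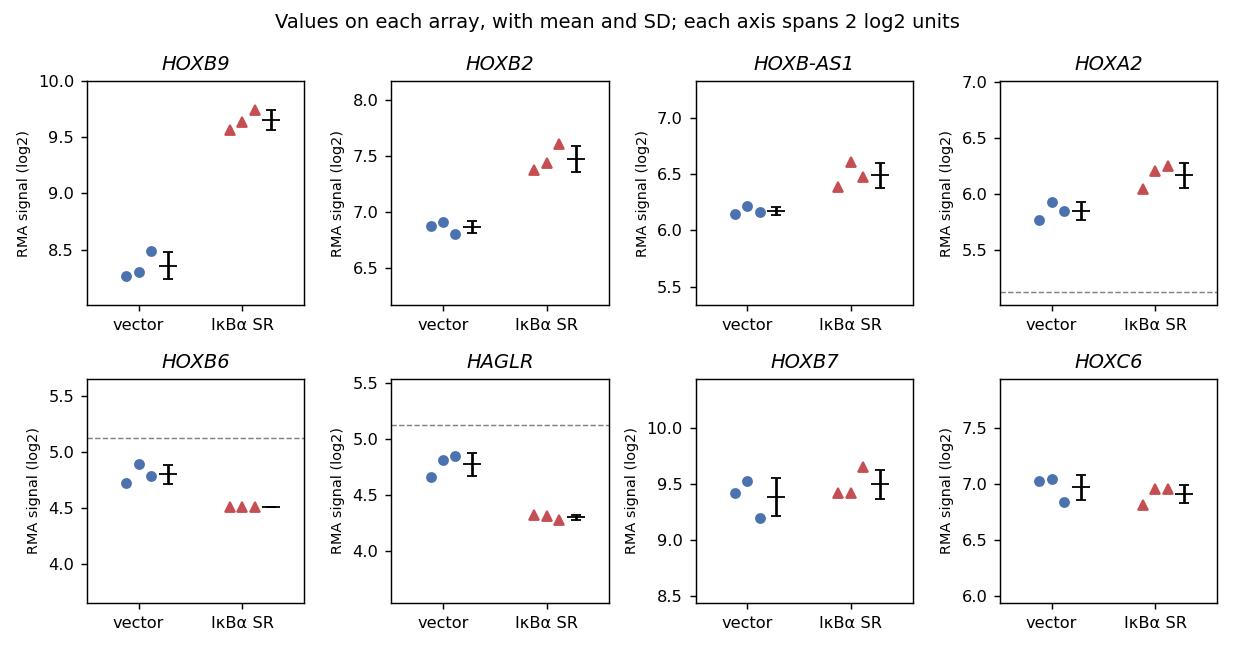
RMA signal (log2) on each array for 6 genes of the clusters that were called and 2 that were not (HOXB7 and HOXC6), with vector arrays as circles, IκBα SR arrays as triangles, and the mean and SD of 3 arrays beside them. Each axis spans 2 log2 units, so the distances can be compared between panels, and the dashed line, where in range, is the median gene of 5.13.

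The HOXB genes gave differences of unlike size and sign. HOXB7, which lies between HOXB8 and HOXB6 and is named here after its values were seen, gave 9.42, 9.53 and 9.20 in vector cells and 9.42, 9.42 and 9.65 in IκBα SR cells. Those groups overlapped, and the difference of 0.12 had a 95% interval of -0.19 to 0.42. Set against HOXB7 on the same array, HOXB9 changed from -1.16, -1.23 and -0.71 on the vector arrays to 0.15, 0.22 and 0.10 on the IκBα SR arrays. This pair was chosen with its values known, so it is given with no test. The 3 relative values of IκBα SR cells all lay above those of vector cells. HOXB8, the neighbor of HOXB9 within the cluster, differed by 0.04, HOXB1 by 0.01 and HOXB13, known from prostate tissue, by -0.11, none of them called and all dim. HOXB5 gave 5.43, 5.05 and 5.26 in vector cells and 4.87, 5.12 and 4.94 in IκBα SR cells, a difference of -0.27 with an interval of -0.59 to 0.05. In all, 2 of the 8 HOXB genes were higher, 1 was lower and the median difference was 0.03. These counts stand beside 9.76% of all genes higher and 8.58% lower. Only 3 of the 8 HOXB genes were at or above the median gene, among them both that were higher.

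No HOXC gene and no HOXD gene was called in either direction, beside 9.76% of all genes higher and 8.58% lower. Only 3 of the 9 HOXC genes and 3 of the 7 HOXD genes were at or above the median gene. The 9 HOXC genes differed by between -0.32 and 0.16, with a median of -0.02. HOXC13, a regulator of hair keratins, lay at the low end and gave 6.30, 6.06 and 6.72 in vector cells against 6.06, 6.12 and 5.96 in IκBα SR cells. Its groups overlapped, vector replicate 3 was the highest value, and the interval ran from -0.81 to 0.17. HOXC4, at the other end, differed by 0.16. HOXC6 was nearly level at -0.06, with 7.03, 7.05 and 6.84 in vector cells and 6.82, 6.96 and 6.96 in IκBα SR cells. The 7 HOXD genes spanned -0.18 to 0.06 with a median of -0.01. HOXD10, a limb and motor neuron gene, was lowest among them at -0.18, and HOXD13, which patterns the digits, was highest at 0.06.

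Among the 21 HOX genes that were not called, 13 were lower and 8 higher in IκBα SR cells, and 13 differed by less than 0.1. The 95% interval lay within a 2-fold change in either direction for all 21 and within a 1.5-fold change for 19, the exceptions being HOXC13 and HOXB5. Of the 21 genes 14 were dim, and some had repeated values, such as HOXC10 with 4.39 on all 3 vector arrays. A narrow interval in such a gene does not show that its expression was steady. By paralog number, 2 of the 4 measured genes of groups 1 to 3 were higher and none lower (median 0.16), none of the 9 genes of groups 4 to 8 was higher and 1 was lower (median -0.01), and 1 of the 12 genes of groups 9 to 13 was higher and none lower (median -0.03). These counts stand beside 9.76% of all genes higher and 8.58% lower, and the difference between the groups was not tested. The 2 of groups 1 to 3 became 1 without vector replicate 1, 2 or 3 and without IκBα SR replicate 2 or 3, each time through the loss of HOXA2, and the 1 of groups 4 to 8, HOXB6, became 0 without vector replicate 3 and without IκBα SR replicate 1, 2 or 3.

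**Figure D3:**
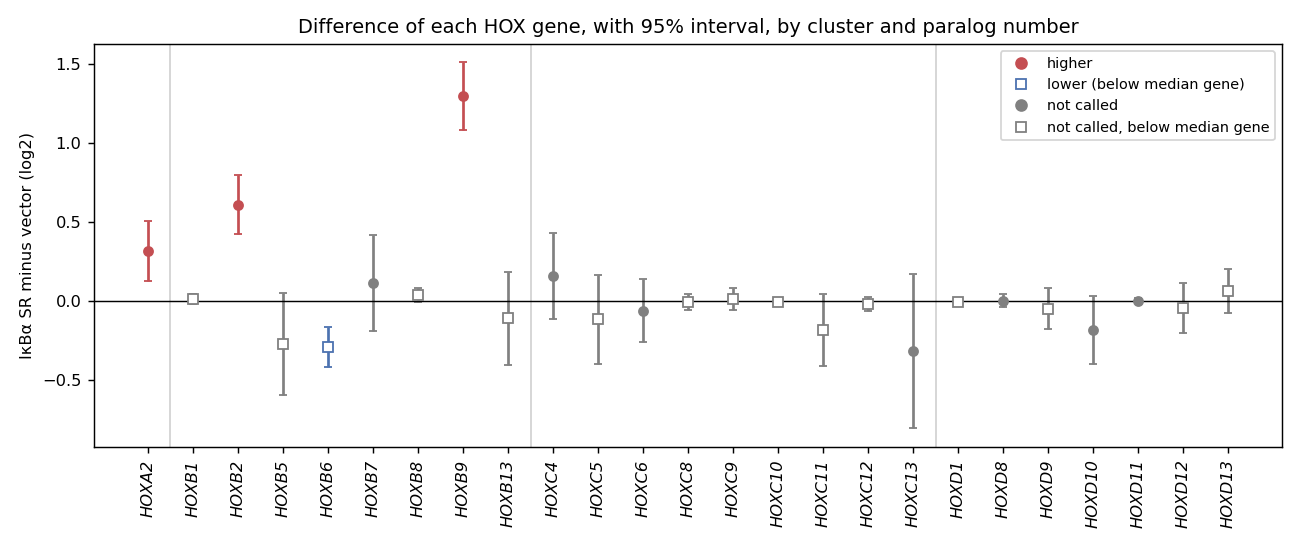
IκBα SR minus vector difference (log2) of each measured HOX gene with its 95% interval, ordered by cluster and paralog number, where filled circles are genes at or above the median gene and open squares dim ones. HOXB9, HOXB2 and HOXA2 lie above 0 and HOXB6 below, while the intervals of the HOXC and HOXD genes all include 0.

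Features shared by several genes are given as values only, since none of their genes can be read alone. A feature of HOXA3 and HOXA6 gave 5.28, 5.15 and 5.34 in vector cells and 5.34, 5.48 and 5.41 in IκBα SR cells, a difference of 0.16 (adjusted p = 0.37 by limma over all features). The remaining 4 such features differed by between -0.04 and 0.00, and none passed the threshold. They covered HOXA9, HOXB3 with HOXB4, HOXD3 with HOXD4, and HOXC4 with HOXC5 and HOXC6.

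The promoter of HOXA2 is shown because that gene was the only called HOX gene with an entry in the promoter table used here (RefSeq, GRCh38.p14), and the promoter of HOXB-AS1, an antisense gene at HOXB2, because it was also called. Each runs from 250 bases before to 50 bases after the annotated start, on the strand of the gene. HOXA2 lies on the minus strand at chr7:27102634-27102933 and HOXB-AS1 on the plus strand at chr17:48544101-48544400. Capitals mark matches to an NF-κB consensus and to a PBX-HOX motif, TGATNNAT, searched on both strands together with the TATA motif TATAAA.
HOXA2: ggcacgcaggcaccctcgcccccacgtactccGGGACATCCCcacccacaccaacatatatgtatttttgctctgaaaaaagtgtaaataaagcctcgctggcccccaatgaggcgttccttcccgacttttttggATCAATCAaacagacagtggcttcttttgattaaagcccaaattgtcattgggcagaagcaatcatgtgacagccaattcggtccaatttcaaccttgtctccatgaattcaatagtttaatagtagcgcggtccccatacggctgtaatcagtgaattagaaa
HOXB-AS1: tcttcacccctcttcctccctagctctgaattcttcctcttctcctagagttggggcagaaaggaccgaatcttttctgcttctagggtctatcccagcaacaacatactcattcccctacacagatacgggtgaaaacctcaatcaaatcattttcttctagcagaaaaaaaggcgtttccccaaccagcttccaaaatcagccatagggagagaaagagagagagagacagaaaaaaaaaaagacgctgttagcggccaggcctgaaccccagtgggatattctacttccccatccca
The HOXA2 window held 1 match to the NF-κB consensus, beginning at base 33 from the 5′ end, and 1 to the PBX-HOX motif on the opposite strand, beginning at base 137. The 2 matches did not overlap, and the window of HOXB-AS1 held none of the 3 motifs. Over all 35116 promoters of this length, 5.91% held the NF-κB consensus, 7.40% the PBX-HOX motif and 11.5% the TATA motif. For the HOX genes the table had 27 promoters of 20 genes, of which 1 held the NF-κB consensus (HOXA2), 3 the PBX-HOX motif (HOXA2, HOXB1 and HOXD11) and 5 the TATA motif (in HOXA3, HOXA9, HOXA10 and HOXD13). These matches describe letters only and were not tested as binding sites.

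Non-coding genes lie between the HOX genes and are often transcribed with them. Of 18 listed antisense and long non-coding genes of the clusters 15 were measured, of which 1 was higher and 1 lower. Over all genes, 9.76% were higher and 8.58% lower. HOXB-AS1, transcribed against HOXB2, gave 6.15, 6.22 and 6.16 in vector cells and 6.39, 6.61 and 6.48 in IκBα SR cells. The groups did not overlap and the difference was 0.32 (adjusted p = 0.031 by limma), in the same direction as HOXB2, with which it overlaps on the opposite strand. Whether the 2 features share signal was not tested, and the call held in 10 of 17 alternatives. HAGLR, a long non-coding gene of the HOXD cluster, was 4.66, 4.81 and 4.85 in vector cells and 4.32, 4.31 and 4.28 in IκBα SR cells. It fell by 0.47 (adjusted p = 0.0064 by limma) at a dim level, while none of the 7 HOXD genes was called. HOTAIR, from the HOXC cluster, differed by 0.01 and HOTTIP, from the HOXA cluster, by 0.12, and neither was called.

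MicroRNAs of the clusters are known to pair with HOX transcripts, and miR-196a-5p, which is made from both the HOXB and the HOXC cluster, is known to repress HOXB8. Its mature sequence is shown because 2 of the 3 measured microRNA genes encode it. The copy of MIR196A1 lies on the minus strand at chr17:48632532-48632553 and that of MIR196A2 on the plus strand at chr12:53991762-53991783 (RefSeq, GRCh38.p14). Capitals mark the seed, bases 2 to 8.
miR-196a-5p: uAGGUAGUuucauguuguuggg
MIR196A1 gave 5.84, 5.75 and 5.84 in vector cells and 5.96, 6.01 and 5.84 in IκBα SR cells, a difference of 0.12. MIR196A2 was dim and gave 3.89, 3.85 and 3.24 against 4.36, 4.15 and 3.89, a difference of 0.47. Both pairs of groups touched at 1 shared value, and neither gene was called. MIR615, the other microRNA gene measured, differed by 0.16 and was not called.

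Genes on both sides of the clusters were compared with the HOX genes inside them, taking the 10 nearest measured genes on each side. Around HOXA, 9 of 20 neighbors were higher and none lower (median 0.12), and all 9 were among the 12 neighbors at or above the median gene. They included CYCS (cytochrome c, 0.94), OSBPL3 (0.90), SPMIP4 (0.39) and GSDME (0.36) on one side, and CREB5 (1.02), SCRN1 (0.70), TAX1BP1 (0.62) and HIBADH (0.51) on the other. These counts stand beside the 9.76% of all genes and the 18.7% of genes at or above the median gene that were higher, and beside the 0.32 of HOXA2. Around HOXB, 1 neighbor of 20 was higher, CBX1 (0.33), and 5 were lower, namely GNGT2 (-0.86), ABI3 (-0.70), NFE2L1 (-0.49), CDK5RAP3 (-0.35) and UBE2Z (-0.34), with a median of -0.06. All 5 were among the 12 neighbors of HOXB at or above the median gene, where 15.4% of genes were lower, and UBE2Z kept its call in 10 and CDK5RAP3 in 12 of 17 alternatives. HOXC had 1 lower neighbor of 20, the integrin gene ITGA5 (-0.24), and none higher. HOXD had 2 higher, CHRNA1 (0.67), a receptor subunit of muscle, and PRKRA (0.44), and 1 lower, CHN1 (-0.44). CHN1 had the same value on all 3 IκBα SR arrays and kept its call in 10 of 16 alternatives. The counts around HOXC and HOXD stand beside 9.76% of all genes higher and 8.58% lower. EVX1 and EVX2, homeobox genes next to HOXA and HOXD, differed by 0.01 and 0.07 and were not called, nor was any of the 5 measured homeobox genes of this kind and of the ParaHox group.

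**Figure D4:**
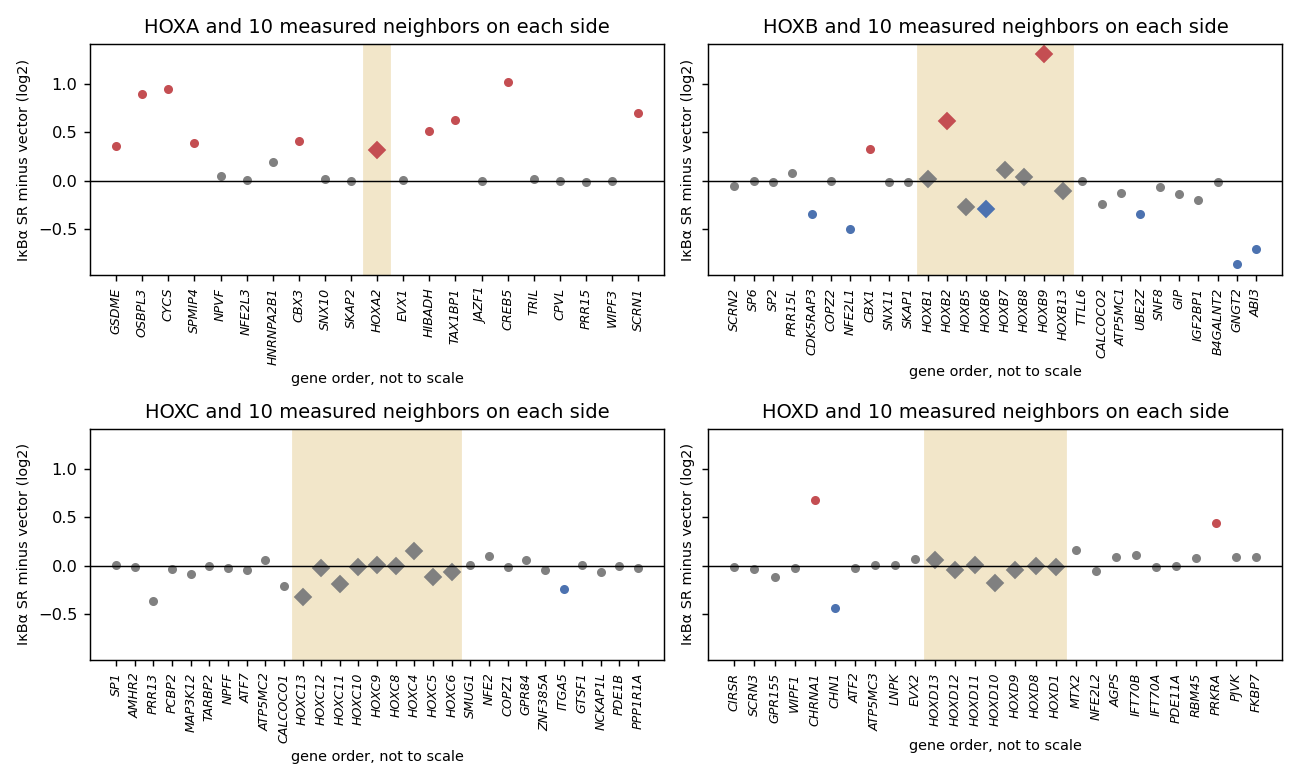
IκBα SR minus vector difference (log2) of the measured HOX genes (diamonds, shaded) and of the 10 nearest measured genes on each side (circles), 1 panel per cluster. Genes are ordered by RefSeq start coordinate and not to scale, which places HOXC4 and HOXC5 between HOXC8 and HOXC6. Red genes were called higher, blue lower and grey neither, with 9 red neighbors around HOXA, 5 blue and 1 red around HOXB, and 1 and 3 called neighbors around HOXC and HOXD.

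TALE partners of HOX proteins showed small differences. Of 8 measured, 1 was higher and 2 lower. All but PBX4 were at or above the median gene, where 18.7% of genes were higher and 15.4% lower. PKNOX1 gave 8.91, 8.86 and 8.94 in vector cells and 9.17, 9.20 and 9.16 in IκBα SR cells, a difference of 0.27 (adjusted p = 0.0025 by limma). PKNOX2 gave 6.06, 6.10 and 6.06 against 5.77, 5.77 and 5.79, a difference of -0.29 (adjusted p = 4.4e-04 by limma), and PBX3 differed by -0.10, a call that held in 9 of 17 alternatives. Both PKNOX genes thus moved in opposite directions by about equal amounts, with no overlap of groups in either. MEIS1, MEIS2, MEIS3, PBX2 and PBX4 were not called.

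Polycomb genes, whose products keep HOX clusters silent, had the lowest median of the 8 lists plotted here, at -0.28. Of the 16 measured, 6 were lower and 1 higher. Of these 16 genes 15 were at or above the median gene, where 15.4% of genes were lower and 18.7% higher. The 6 lower calls became 2 when IκBα SR replicate 2 was left out, and 3 when either IκBα SR replicate 3 or vector replicate 2 was. EZH2, the methyltransferase of Polycomb repressive complex 2, gave 9.69, 9.90 and 9.73 in vector cells and 8.94, 8.87 and 8.92 in IκBα SR cells. The groups stood far apart, and EZH2 fell by 0.86 (adjusted p = 0.0014 by limma), a call that held in 17 of 17 alternatives. SUZ12 and JARID2, further members of that complex, differed by -0.42 and -0.36, and YY1, a DNA-binding factor linked with Polycomb, by -0.32, all called, although SUZ12 kept its call in only 10 of 17 alternatives. PHF19 was higher by 0.15, a call that held in 7 of 17 alternatives. Not every gene of the list fell. Among those not called, EED was higher by 0.19, with no overlap of groups, and MTF2 lower by 0.14. These shifts stood beside HOX genes of which 21 of 25 were not called, and any link between the lists was not tested.

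Of 14 Trithorax genes and related activators, 4 were lower and 1 higher, with a median of -0.02. All 14 were at or above the median gene, where 15.4% of genes were lower and 18.7% higher. KMT2B (-0.35), ASH2L (-0.32), KDM6A (-0.25) and KMT2A (-0.13), all parts of enzyme complexes that mark or unmark histones at active genes, were lower, although KMT2A kept its call in only 9 of 17 alternatives. RBBP5, a core subunit of the same methyltransferase complexes, was higher by 0.12, which held in 6 of 16 alternatives. Among 8 boundary and loop factors, the cohesin genes SMC3 (0.75) and STAG1 (0.51) were higher and SMC1A (-0.24), a further cohesin gene, lower. All 8 were at or above the median gene, so the same shares of 18.7% higher and 15.4% lower stand beside these counts. STAG1, like KDM6A and RBBP5, had the same value on all 3 IκBα SR arrays. CTCF, which binds the boundaries inside HOX clusters, differed by -0.08 and was not called. Retinoic acid, which turns on low-numbered HOX genes in embryos, was represented by 16 measured pathway genes. Only 7 of these 16 were at or above the median gene. RDH10, an enzyme of retinoic acid synthesis, was the only one called (higher by 0.22), and none was lower. Among all genes, dim ones included, 9.76% were higher and 8.58% lower. RDH10 had the same value on all 3 IκBα SR arrays and kept its call in 8 of 16 alternatives. None of 5 other early regulators was called, and 2 of these 5 reached the median gene.

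**Figure D5:**
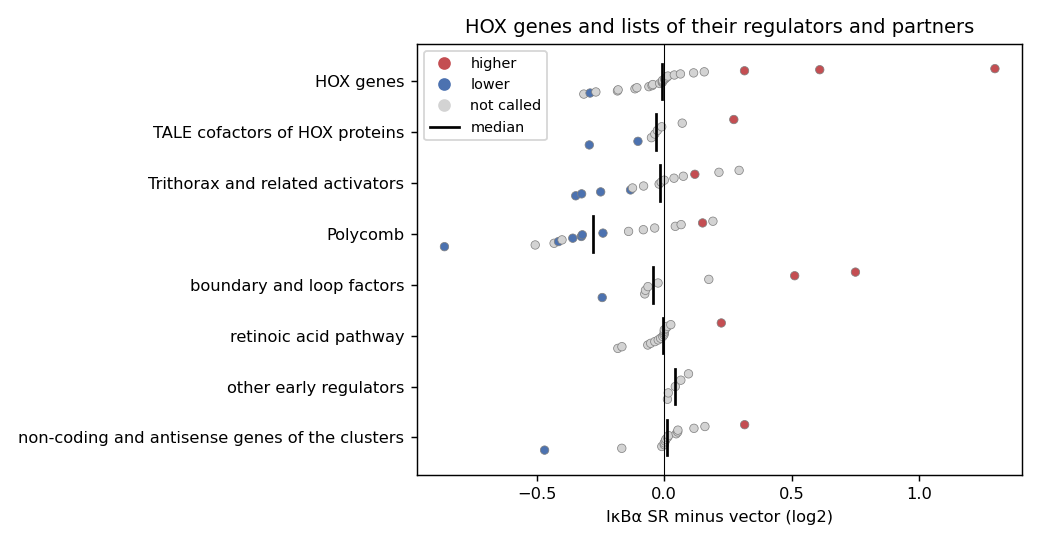
IκBα SR minus vector difference (log2) of every measured gene in 8 lists, 1 point per gene, with genes called higher in red, called lower in blue and not called in grey, and the median of each list as a bar. The median of the HOX genes was -0.01 and that of the Polycomb list -0.28, and HOXB9 is the rightmost point at 1.30.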

How the data were processed

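The log2 values deposited by the authors had been made with RMA (background correction, quantile normalization and median-polish summary) in Affymetrix Expression Console, per the submitters' processing notes; the versions and the genome build of the array were not given in the sources used here. They were used without further scaling. Of 70523 features, 23781 carried 1 gene symbol, 1543 several and 45199 none in the platform table used; symbols were updated through RefSeq identifiers, and the brightest feature stood for a gene, which left 22411 genes. Array medians ranged from 4.34 to 4.40. The precision is limited by 3 arrays per group.

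Groups were compared with limma 3.58.1 (lmFit and eBayes) in R 4.3.3, with Benjamini-Hochberg adjustment over all 22411 genes, after the procedure had been tested on simulated data. Named genes were all called HOX genes, up to 4 genes per direction with the smallest p from each other list, and NFKBIA. The HOX genes and all lists were chosen with earlier results of these data known. The alternatives, 17 in number, changed the scaling, the filter on dim or repeated values, the summary per gene, the test and the arrays used. Sequences came from RefSeq tables.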

Additional observations from a re-analysis of the deposited data

How the results depend on the processing

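HOXB9 was higher in 17 of 17 alternatives, some of which reused its main values, and no HOX gene changed direction while called. With the replicate block, the number of HOX genes called lower was 0, as was that of HOXB genes. Both were also 0 without dim genes, without genes of identical values in a group, and at 1.5-fold or more. These last zeros were fixed in advance. The filters removed HOXB6, the only lower HOX gene, before testing, and its 0.817-fold change in the main fit was short of 1.5-fold. The number of HOX genes called lower ranged from 0 to 1 when single arrays were left out. The number of HOXA genes called higher was 0 with a trended, robust fit and with the methods' t-test. It was also 0 at 1.5-fold or more, which the 1.24-fold rise of HOXA2 could not reach. The number ranged from 0 to 1 when single arrays were left out. With the replicate number as a block, 1 HOXB gene was higher (HOXB9), HOXB2 had an adjusted p of 0.063 by limma, and the whole array gave 1327 higher and 1123 lower genes in place of 2188 and 1922. Same-numbered arrays correlated at 0.12, -0.22 and -0.20 in their deviations from the group means, with the highest value, 0.31, between vector replicate 3 and IκBα SR replicate 2, so the numbers did not pair the arrays. At 1.5-fold or more, 820 genes were higher and 618 lower. Dim features limit what 15 of the 25 HOX genes can show.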

Other observations

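Repeated values were common in the deposited table. Of all 22411 genes, 1563 had the same value on all 6 arrays, and 6147 had the same value on all 3 arrays of at least 1 group, among them 6 of the 25 HOX genes. HOXD11, for example, had 5.92 as its identical value on the 3 vector arrays, and HOXB7 had the same 9.42 on vector replicate 1 and on IκBα SR replicates 1 and 2. The effect of such repeats on the fitted spread of single genes was not tested beyond leaving those genes out, which left HOXB9, HOXB2 and HOXA2 higher.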
